A study of Homo sapiens with 6 samples.

Results

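The laminin chains are the subunits of laminin, the cross-shaped protein of basement membranes. The 9 chains examined were LAMA1, LAMA3, LAMA4 and LAMA5 (alpha chains), LAMB1, LAMB2 and LAMB3 (beta chains), and LAMC1 and LAMC3 (gamma chains), each taken as the row of the count table that carries its symbol. They made up 9 of 60624 rows, and 7 of the 9 passed the filter on low counts that left 16652 genes to test. The libraries were polyA RNA-seq of A549, an established human lung cancer line, with 3 parental libraries (wild type for the deletion) and 3 libraries of the same line after CRISPR/Cas9 deletion of RAVER1, an RNA-binding protein that works with the splicing regulator PTBP1. No treatment or time course was applied beyond the deletion. The knockout titles share the tag KO2 without saying whether it names a single clone, so the p-values reflect how much these libraries vary, not how much separately made knockout lines would.

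Each laminin molecule holds 1 alpha, 1 beta and 1 gamma chain, and its name lists the numbers of those chains, so that laminin-511 is built from LAMA5, LAMB1 and LAMC1. Beta and gamma chains pair inside the cell, and the complex is secreted once an alpha chain has joined, which then carries the binding sites for integrins and dystroglycan. In lung, laminins with the LAMA5 and LAMA3 chains lie under airway and alveolar epithelium, and the LAMA3 and LAMB3 chains belong to the anchoring laminin that ties epithelial cells to the matrix through hemidesmosomes.

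Total counts ran from 29811747 to 39910127 per library. RAVER1 itself had counts of 2510, 1996 and 2285 in parental libraries and 110, 112 and 79 in knockout libraries, so the labels and the targeted gene point the same way. All 7 listed markers of an epithelial lung cancer line could be tested, and 5 were lower and 1, KRT7, was higher in the knockout. Among all tested genes, 41.4% differed in either direction at an edgeR adjusted p under 0.05. The epithelial markers had a summed level of 8480 to 9336 CPM (counts scaled to a common library size) in parental and 6417 to 7096 in knockout libraries. Of 8 markers of alveolar type 2 cells, the lung cell that makes surfactant, 1 could be tested, ABCA3. SFTPA1 and SFTPA2 were at 0 in every library. The list summed to 103 to 109 CPM in parental and 76.4 to 86.9 in knockout libraries, nearly all of it ABCA3 (means 104.8 and 81.9). Fibroblast markers summed to 56.0 to 61.0 CPM in parental and 79.8 to 85.4 in knockout libraries. That sum came from COL1A1 and THY1, the 2 of 6 that could be tested, which were both higher, while DCN was at 0 throughout. Endothelial markers summed to at most 0.129 CPM and leukocyte markers to at most 5.79, nearly all of it CD14. PECAM1 and CD3E were at 0. Markers of basal epithelial cells, which make the anchoring laminin, summed to 1.72 to 2.34 CPM in parental and 1.55 to 2.09 in knockout libraries. TP63 made up nearly all of that sum. The part of these marker shifts in the laminin values was not tested, and in bulk RNA fewer cells of a type and less RNA per cell cannot be told apart.

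Of the 7 chains that could be tested, 5 were higher and 2 were lower in RAVER1-deleted cells. LAMA3 and LAMC3 rose most, to 2.71 and 2.496 times the parental level, while LAMB3, LAMB2 and LAMC1 rose by less and the abundant LAMA5 and LAMB1 fell. The edgeR quasi-likelihood test with Benjamini-Hochberg adjustment called 21.3% of all tested genes higher and 20.1% lower at an adjusted p under 0.05. Parental and knockout values did not overlap for any of the 7 chains, which was also true of 50.2% of all tested genes. The median log2 fold change over all tested genes was 0.0019 and the median absolute change was 0.19. The scaling between libraries (TMM) places this centre near 0 by design, so it is not a result. With upper-quartile scaling the median was -0.031.

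**Figure D1:**
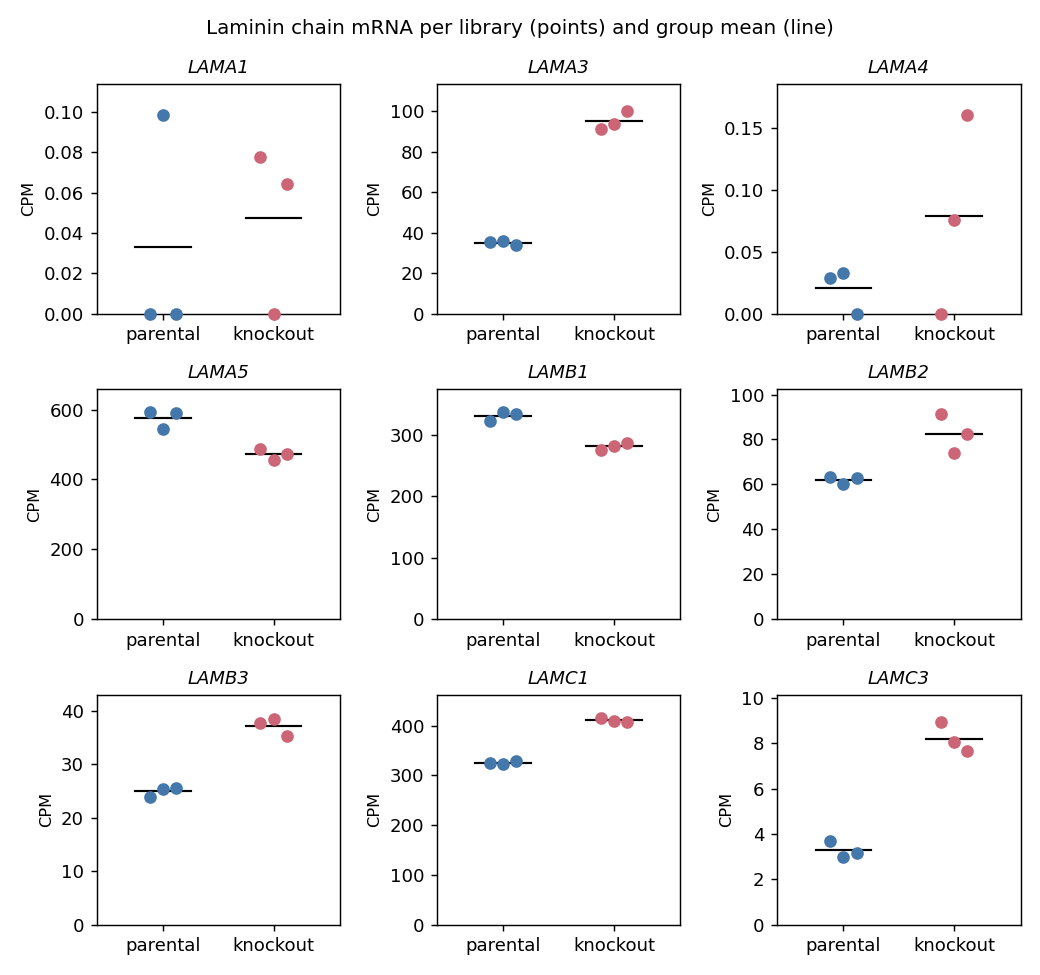
CPM of each of the 9 laminin chains in every library, 1 panel per chain with its own linear axis from 0, points for libraries and a line for the group mean. The knockout points of LAMA3, LAMB2, LAMB3, LAMC1 and LAMC3 lie above all parental points and those of LAMA5 and LAMB1 below them, while LAMA1 and LAMA4 stay at or under 5 counts per library.

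LAMA3 (ENSG00000053747, hg38 chr18:23689443-23956222, plus strand) encodes the alpha chain of the anchoring laminin and of laminin-311 and laminin-321. It stood at 35.5, 35.7 and 33.9 CPM in parental libraries and at 91.4, 93.6 and 99.96 CPM in knockout libraries. Every knockout library was well above every parental library, and the gap between the groups was many times the spread within either. The log2 fold change was 1.44 (SE 0.052, 95% interval 1.33 to 1.55, edgeR adjusted p = 8.72e-14). The gene makes a long and a short product from separate start sites, and counts per gene do not say which of them rose.

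LAMA5 (ENSG00000130702, hg38 chr20:62307955-62367312, minus strand) encodes the main alpha chain of adult epithelial basement membranes and had the most counts of the members. Its level was 592, 543 and 589 CPM in parental libraries and 487, 456 and 474 CPM in knockout libraries. The lowest parental library stood above the highest knockout library. The log2 fold change was -0.28 (SE 0.043, 95% interval -0.37 to -0.19, edgeR adjusted p = 3.21e-05), a drop from 575 ± 27.2 to 472 ± 15.7 CPM (SD, n = 3 per group). LAMA5 shares 244 exon bases with ADRM1 and 118 with LAMA5-AS1 on the opposite strand, and since the strand setting of the counting is not given in the sources used here, some reads may have been lost or exchanged there. ADRM1 had 4879 to 7780 counts per library and LAMA5-AS1 had 26 to 40.

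The 2 remaining alpha chains were near the limit of detection. LAMA1, the alpha chain of early embryonic basement membranes (ENSG00000101680, hg38 chr18:6941744-7117814, minus strand), had counts of 0, 3 and 0 in parental and 3, 0 and 2 in knockout libraries. LAMA4, a chain of vessel and mesenchymal basement membranes (ENSG00000112769, hg38 chr6:112108760-112254939, minus strand), had 1, 1 and 0 against 0, 3 and 5. A library with a count of 0 allows up to 3 counts, or 0.0754 to 0.0987 CPM, counting error only. Both genes failed the filter, and when it was lifted edgeR gave LAMA1 an adjusted p of 0.821 and LAMA4 one of 0.371, so no difference was detectable at this depth.

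Among the beta chains, LAMB1 and LAMB3 moved in opposite directions. LAMB1 (ENSG00000091136, hg38 chr7:107923799-108003255, minus strand), the widespread beta chain of laminin-511 and laminin-111, stood at 322, 337 and 334 CPM in parental and at 276, 282 and 287 CPM in knockout libraries. The groups were separate, with a log2 fold change of -0.23 (SE 0.039, 95% interval -0.32 to -0.15, edgeR adjusted p = 9.32e-05). The 808 tested genes of chromosome 7 had a median log2 change of -0.11. The 20 tested genes nearest to LAMB1 had a median of 0.06, with 5 higher and 1 lower (all tested genes, 21.3% and 20.1%). LAMB1 shares 70 exon bases with DLD on the other strand.

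LAMB3 (ENSG00000196878, hg38 chr1:209614870-209652466, minus strand) is the beta chain of the anchoring laminin of skin and airway epithelium. Its level was 24.0, 25.4 and 25.6 CPM in parental libraries and 37.7, 38.4 and 35.3 CPM in knockout libraries. All 3 knockout libraries were higher, with a log2 fold change of 0.57 (SE 0.060, 95% interval 0.45 to 0.70, edgeR adjusted p = 2.6e-07). LAMB2 (ENSG00000172037, hg38 chr3:49121114-49133118, minus strand), the beta chain of neuromuscular and kidney filter basement membranes, had 63.2, 60.1 and 62.7 CPM in parental and 91.5, 74.1 and 82.2 CPM in knockout libraries. Its knockout libraries were the most scattered of the beta chains, with an SD of 8.73 around 82.6 CPM, yet the lowest of them still exceeded every parental library. The log2 fold change of LAMB2 was 0.41 (SE 0.063, 95% interval 0.28 to 0.55, edgeR adjusted p = 2.94e-05).

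LAMC1 (ENSG00000135862, hg38 chr1:183023460-183145592, plus strand) is the gamma chain of most laminins. It was the tightest of the members, at 324, 323 and 329 CPM in parental libraries and 416, 410 and 407 CPM in knockout libraries. The log2 fold change was 0.34 (SE 0.038, 95% interval 0.26 to 0.42, edgeR adjusted p = 6.6e-07). LAMC1 thus rose while LAMB1, its usual partner at a like CPM in parental libraries, fell.

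LAMC3 (ENSG00000050555, hg38 chr9:131009082-131094473, plus strand), a gamma chain of narrower distribution, was the least abundant of the tested members at 3.68, 2.995 and 3.17 CPM in parental libraries. It reached 8.92, 8.04 and 7.63 CPM in knockout libraries. The lowest knockout library was well above the highest parental one, with a log2 fold change of 1.32 (SE 0.11, 95% interval 1.08 to 1.56, edgeR adjusted p = 1.84e-08).

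Promoter windows of RefSeq (GRCh38.p14) were read to show the start regions of chains that moved together and apart, since LAMA3 and LAMB3 rose while LAMA5 and LAMB1 fell. The table held 9 windows for 7 of the 9 members, each covering 250 bases before and 50 after an annotated start. Capitals mark matches to the AP-1 element TGANTCA and to the E-box CACCTG, searched on both strands (the E-box reads CAGGTG on the other). The LAMA3 window is chr18:23872770-23873069 (plus strand), at an internal start that lies 183577 bases downstream of the first annotated coding start. The LAMB3 window is chr1:209651325-209651624 (minus strand), the most downstream of its 3 windows, and the LAMA5 and LAMB1 windows are chr20:62367263-62367562 and chr7:108003112-108003411 (both minus strand).
LAMA3: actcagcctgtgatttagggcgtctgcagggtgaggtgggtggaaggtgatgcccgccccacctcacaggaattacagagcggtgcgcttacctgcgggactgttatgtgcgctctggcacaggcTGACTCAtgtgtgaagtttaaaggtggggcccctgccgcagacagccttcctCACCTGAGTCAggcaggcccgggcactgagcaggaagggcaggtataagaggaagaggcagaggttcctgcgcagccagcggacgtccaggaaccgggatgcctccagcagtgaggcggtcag
LAMB3: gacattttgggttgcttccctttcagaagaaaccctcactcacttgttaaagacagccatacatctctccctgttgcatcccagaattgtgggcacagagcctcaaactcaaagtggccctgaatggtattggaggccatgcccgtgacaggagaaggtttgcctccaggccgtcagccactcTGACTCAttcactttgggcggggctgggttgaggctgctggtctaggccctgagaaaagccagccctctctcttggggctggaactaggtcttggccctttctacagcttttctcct
LAMA5: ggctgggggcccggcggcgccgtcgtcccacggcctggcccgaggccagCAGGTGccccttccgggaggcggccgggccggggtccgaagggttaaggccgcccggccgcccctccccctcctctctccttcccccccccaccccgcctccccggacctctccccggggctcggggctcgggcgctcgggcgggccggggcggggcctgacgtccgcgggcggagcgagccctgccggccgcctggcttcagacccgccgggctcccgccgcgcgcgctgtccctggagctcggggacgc
LAMB1: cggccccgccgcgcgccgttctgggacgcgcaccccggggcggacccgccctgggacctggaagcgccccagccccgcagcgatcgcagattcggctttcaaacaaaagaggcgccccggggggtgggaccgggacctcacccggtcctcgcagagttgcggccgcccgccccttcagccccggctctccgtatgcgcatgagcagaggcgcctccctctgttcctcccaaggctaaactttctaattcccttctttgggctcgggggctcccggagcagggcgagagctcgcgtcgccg
The LAMA3 window holds AP-1 matches 125 and 69 bases before the start, and the second overlaps an E-box match at 73 bases. The printed LAMB3 window holds 1 AP-1 match 67 bases before the start, and it was chosen for print after the matches were seen. The other 2 LAMB3 windows, at the upstream starts, have no AP-1 match, and 1 of them has an E-box match 218 bases before its start. The LAMA5 window has no AP-1 match and an E-box match 201 bases before the start, and the LAMB1 window has neither. Among all 35116 windows, 7.71% held the AP-1 letters and 20.6% the E-box letters.

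The printed windows also differed in base composition. GC content was 61.7% for LAMA3 and 53.7% for LAMB3, against 82.7% for LAMA5 and 71% for LAMB1, where the median of all windows was 58.7%. The GC box GGGCGG, read on both strands, occurred 5 times in the LAMA5 window and 4 times in that of LAMB1, but once each in those of LAMA3 and LAMB3. It was present in 44.95% of all windows. LAMC1, which rose, had a window of 79% GC with 3 GC boxes and neither of the other matches. LAMB2, which also rose, had 58.7% GC, 1 GC box and neither of the other matches. The chains that rose thus did not share 1 kind of window. These matches are descriptions of sequence, and the libraries do not show which start was used.

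Levels of different chains were compared per length, as CPM divided by the gene length in the deposited table in kilobases (RPKM), a length close to that of the merged exons. In parental cells LAMB1 (41.0 ± 1.02), LAMA5 (40.2 ± 1.90) and LAMC1 (38.5 ± 0.353) formed a top group, SD over 3 libraries, and LAMA5 lay within its spread of the other two. Next came LAMB2 at 9.03 ± 0.249, LAMB3 at 5.37 ± 0.193 and LAMA3 at 2.39 ± 0.066 RPKM, each apart from its neighbour by more than its spread, although LAMA3 and LAMB3 change places with the short LAMA3 transcript and the longest LAMB3 transcript. LAMC3 was lowest of the tested members at 0.437. In knockout cells LAMC1 led alone at 48.6 ± 0.514 RPKM, ahead of LAMB1 at 34.9 ± 0.694 and LAMA5 at 33.0 ± 1.095. LAMB2 followed at 12.03 ± 1.27, then LAMB3 at 7.99 ± 0.346, LAMA3 at 6.47 ± 0.302 and LAMC3 at 1.09 RPKM. With these lengths the order of the chains changed only within the top group. With the longest transcript of each chain, the parental top group spread to 57.4 ± 1.43 for LAMB1, 50.3 ± 2.38 for LAMA5 and 41.2 ± 0.378 RPKM for LAMC1, apart by more than their spread. In knockout cells LAMC1 was then highest at 52.1 ± 0.550 RPKM, with LAMB1 at 48.9 ± 0.972 and LAMA5 at 41.3 ± 1.37. LAMA3 then stood at 8.91 and LAMB3 at 8.62 RPKM in knockout cells, within their spread. With the short LAMA3 transcript, LAMA3 was also above LAMB2 on average in knockout cells, with overlapping libraries.

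**Figure D2:**
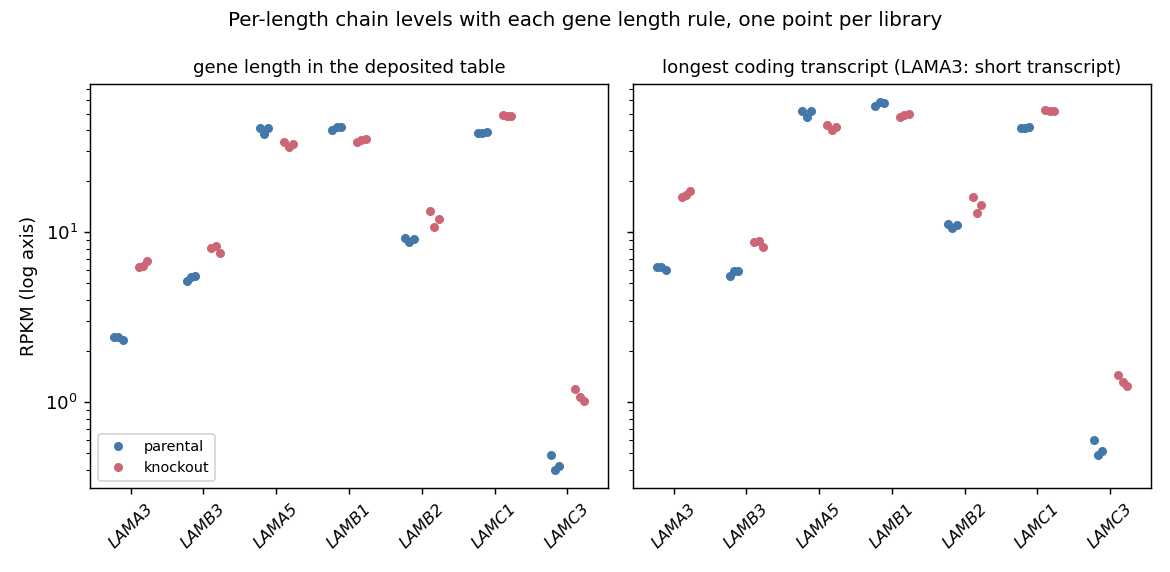
Per-length level (RPKM, log axis) of the 7 tested laminin chains, 1 point per library, with the deposited gene lengths on the left and longest coding transcripts (LAMA3 at its short transcript) on the right. On the left LAMA3 is below LAMB3 in both groups (2.39 and 5.37 RPKM in parental cells), and on the right it is above it.

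The mix of alpha and beta chains differed between the groups. LAMA3 made up 5.60 ± 0.360% of the alpha chain level in parental cells and 16.4 ± 0.824% in knockout cells, while LAMA5 went from 94.2% to 83.5%. With LAMA3 at its short transcript, 5671 bases, and the other chains at their longest, LAMA3 went from 10.9% to 28.8% and LAMA5 from 88.9% to 71.1%, so the size of the difference depended on the length. LAMB1 went from 74.0 ± 0.567% to 63.5 ± 1.83% of the beta chain level, as LAMB2 went from 16.3% to 21.9% and LAMB3 from 9.69% to 14.5%. For each of these 5 chains the 2 groups of shares did not overlap. The exact two-sided permutation p was 0.1, the smallest that 3 against 3 libraries allow, and stayed at 0.1 after adjustment over these 5 shares, so none of these share differences passes 0.05 by this test.

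**Figure D3:**
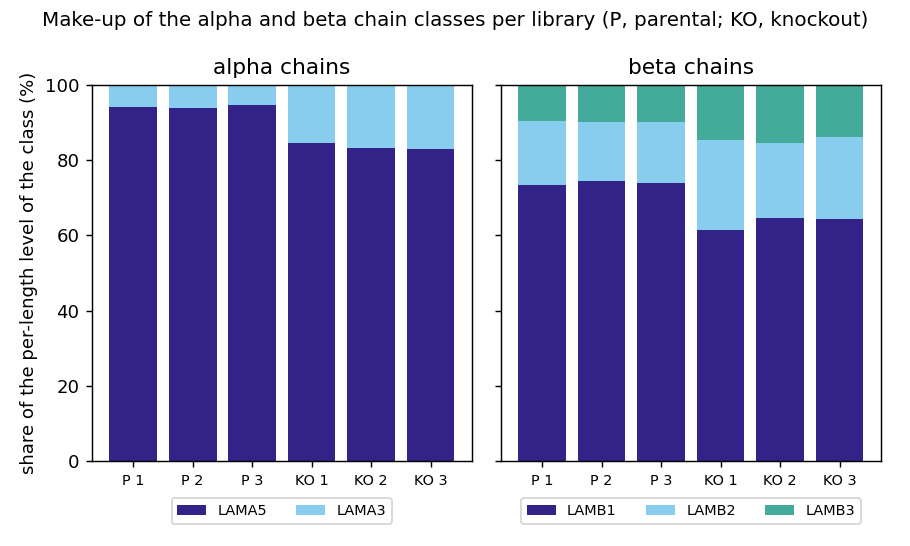
Stacked bars give, for each library, the share (percent) that every alpha or beta chain takes of the per-length level of its class, with chains under 0.5% left undrawn. LAMA3 takes 5.60% of the alpha level on average in parental and 16.4% in knockout libraries with the deposited gene lengths drawn here (10.9% and 28.8% with the short LAMA3 transcript), and LAMB1 takes 74.0% and 63.5% of the beta level.

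The sum of the alpha chains was 42.7 ± 1.89 RPKM in parental and 39.6 ± 1.09 in knockout cells (SD, n = 3 per group), a ratio of 0.927 with an exact permutation p of 0.1. With LAMA3 at its short transcript and the other chains at their longest, that ratio was 1.03 (exact permutation p = 0.5), so its direction depended on the lengths. The beta sum was 55.5 ± 1.05 and 54.9 ± 0.810 RPKM, within its spread. With the longest transcripts it was 74.2 ± 1.44 and 72.1 ± 0.962 RPKM (exact permutation p = 0.2), apart by more than either SD. The level of LAMC1 relative to LAMB1 went from 0.939 to 1.39 per length with the deposited lengths. With the longest transcripts it went from 0.718 to 1.07, so how close LAMC1 and LAMB1 came depended on the lengths. The level of LAMC3 relative to LAMC1 went from 0.0114 to 0.0225 (from 0.0130 to 0.0257 with the longest transcripts). That of LAMA3 relative to LAMA5 went from 0.0595 to 0.196 (from 0.123 to 0.406 with the short LAMA3 transcript). That of LAMB3 relative to LAMB1 went from 0.131 to 0.229 (from 0.101 to 0.177 with the longest transcripts).

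The trimers that these mRNAs could supply were read by taking, in each library, the chain with the lowest per-length level as a ceiling. This assumes equal translation and no sharing of a chain between trimers, and it measures mRNA and not secreted protein. LAMA3 was the lowest chain of laminin-311 and laminin-321 in both groups, so both had a ceiling of 2.39 RPKM in parental and 6.47 in knockout cells with the deposited lengths. With LAMA3 at its short transcript and the others at their longest, the laminin-311 ceiling was 6.18 and 16.8 RPKM. With those lengths LAMB2 was lowest in some knockout libraries for laminin-321, and the log2 change of its ceiling was 1.24. The ratio of LAMA3 to LAMB3 went from 0.445 to 0.812 with the deposited gene lengths. It went from 0.567 to 1.04 with the longest transcript of each, and from 1.07 to 1.95 with the short LAMA3 and the longest LAMB3 transcript.

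The ceiling of laminin-511, the trimer with the most mRNA, went from 38.4 to 33.0 RPKM, a ratio of 0.859. LAMA5 or LAMC1 was its lowest chain in parental libraries and LAMA5 in every knockout library. With the length of the longest transcript for each chain the same ceiling was 41.2 and 41.3 RPKM, so the direction was not stable to the choice of length. Laminin-521 was limited by LAMB2 and went from 9.03 to 12.03 RPKM, and laminin-523 was limited by LAMC3 and went from 0.437 to 1.09 RPKM. Trimers with LAMA1 or LAMA4 had ceilings near 0 in both groups.

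Receptors that bind laminins came from a list of 16 genes, of which 15 could be tested. In the knockout 8 were higher, 3 were lower and 4 did not pass, with a median log2 change of 0.25 against 0.0019 for all tested genes. The share past the threshold was 73.3%, against 41.4% of all tested genes. ITGB4, the integrin beta chain that binds laminin at hemidesmosomes, fell from 442 ± 29.2 to 113 ± 6.55 CPM (SD, n = 3 per group), with a log2 change of -1.97 (edgeR adjusted p = 1.2e-15). ITGB4 therefore moved against LAMA3 and LAMB3. SDC1, a syndecan proteoglycan, rose by 0.73 on the log2 scale, MCAM, a cell adhesion receptor, by 0.89, and BCAM, a receptor for laminins with the LAMA5 chain, by 0.70. SDC1, and ITGA6 named below, lie on chromosome 2, whose 1125 tested genes had a median log2 change of 0.42. ITGA6, ITGA3, ITGB1 and DAG1 were named after their values were seen, because they are the main partners of laminins. ITGA3 rose by 0.25, and ITGA6, the partner of ITGB4, fell by 0.18 with overlapping groups (edgeR adjusted p = 0.0241). The ITGA6 call was lost without parental replicate 2 (adjusted p = 0.126), parental replicate 3 (0.0712) or knockout replicate 1 (0.0776). ITGB1 changed by 0.065 (95% interval -0.036 to 0.17, edgeR adjusted p = 0.305), and DAG1, which encodes dystroglycan, by 0.042 (-0.042 to 0.13, adjusted p = 0.44). ITGB1 passed without knockout replicate 1 (edgeR adjusted p = 0.0125).

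The hemidesmosome list held 6 genes, all tested, with 3 higher, 2 lower and 1 not past the threshold, and a median of 0.071. Of these, ITGA6, ITGB4 and CD151 were also counted in the receptor list. In this list 83.3% passed, against 41.4% of all tested genes. Beside ITGB4, CD151, a tetraspanin partner of laminin-binding integrins, rose by 0.20 on the log2 scale. COL17A1, a transmembrane collagen of the hemidesmosome, rose by 0.91 from a low level of 0.640 to 1.197 CPM. PLEC, which links integrins to keratin, rose by 0.15 (edgeR adjusted p = 0.0148). The PLEC call was lost with upper-quartile scaling (adjusted p = 0.0636), without parental replicate 2 (0.0991) and without knockout replicate 3 (0.0551).

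Other basement membrane components numbered 24, of which 20 could be tested. Of these, 10 were higher, 8 were lower and 2 did not pass, with a median of 0.20. That is 90% past the threshold, against 41.4% of all tested genes. NID2, a nidogen that links laminin to collagen networks, rose from 3.24 ± 0.348 to 22.0 ± 0.146 CPM, with a log2 change of 2.76 (edgeR adjusted p = 1.61e-14). Its relative NID1, named after its values were seen, fell by 0.29 on the log2 scale, so the nidogens moved in opposite directions. PXDN, which cross-links collagen IV, had a log2 change of -4.80, TINAGL1, a secreted matrix protein, one of -2.12, and FRAS1, a matrix protein of epithelial basement membranes, one of -1.07, all past the threshold. Among genes named after their values were seen, the proteoglycans HSPG2 (perlecan) and AGRN (agrin), which bind laminin, fell, with log2 changes of -0.69 and -0.42. Of the 6 collagen IV chains, which form the other network of basement membranes, COL4A1 (0.38), COL4A3 (0.72), COL4A4 (0.97) and COL4A6 (0.31) rose and COL4A5 (-0.26) fell on the log2 scale. COL4A2 did not pass (0.091, edgeR adjusted p = 0.0733), though it did without parental replicate 1 (adjusted p = 0.0407). PXDN, COL4A3 and COL4A4 lie on chromosome 2, whose median is given above.

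Netrins, secreted proteins with laminin-type domains, gave 4 tested genes of 6, with 1 higher and 3 not past the threshold. This was 25% past it, against 41.4% of all tested genes. The gene that passed was NTN4, which rose by 0.30 on the log2 scale and whose product binds laminin gamma chains. Proteases linked to laminin cleavage, among them the plasminogen activators PLAU and PLAT, gave 11 tested genes of 14. Of these, 3 were higher, 3 were lower and 5 did not pass, with a median of -0.15. The share that passed was 54.5%, against 41.4% of all tested genes. MMP7, a matrix metalloprotease of epithelia, fell from 53.4 to 5.02 CPM, and MMP2, a matrix metalloprotease, rose from 1.13 to 20.4 CPM. CTSL, a lysosomal protease, rose by 1.15 and FURIN, a proprotein convertase, fell by 0.32 on the log2 scale.

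Dystroglycan binds laminin through matriglycan, a sugar chain built by a set of enzymes. Of 16 such genes examined, all tested, 4 were higher, 3 were lower and 9 did not pass, with a median of -0.043. Thus 43.75% passed, close to the 41.4% of all tested genes. DPM3 and GMPPB, which act in mannose donor supply, fell, with log2 changes of -0.48 and -0.28, and POMGNT1, which extends O-mannose glycans, rose by 0.27 on the log2 scale. B4GAT1, which prepares the sugar primer of matriglycan, rose by 0.25 on the log2 scale.

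**Figure D4:**
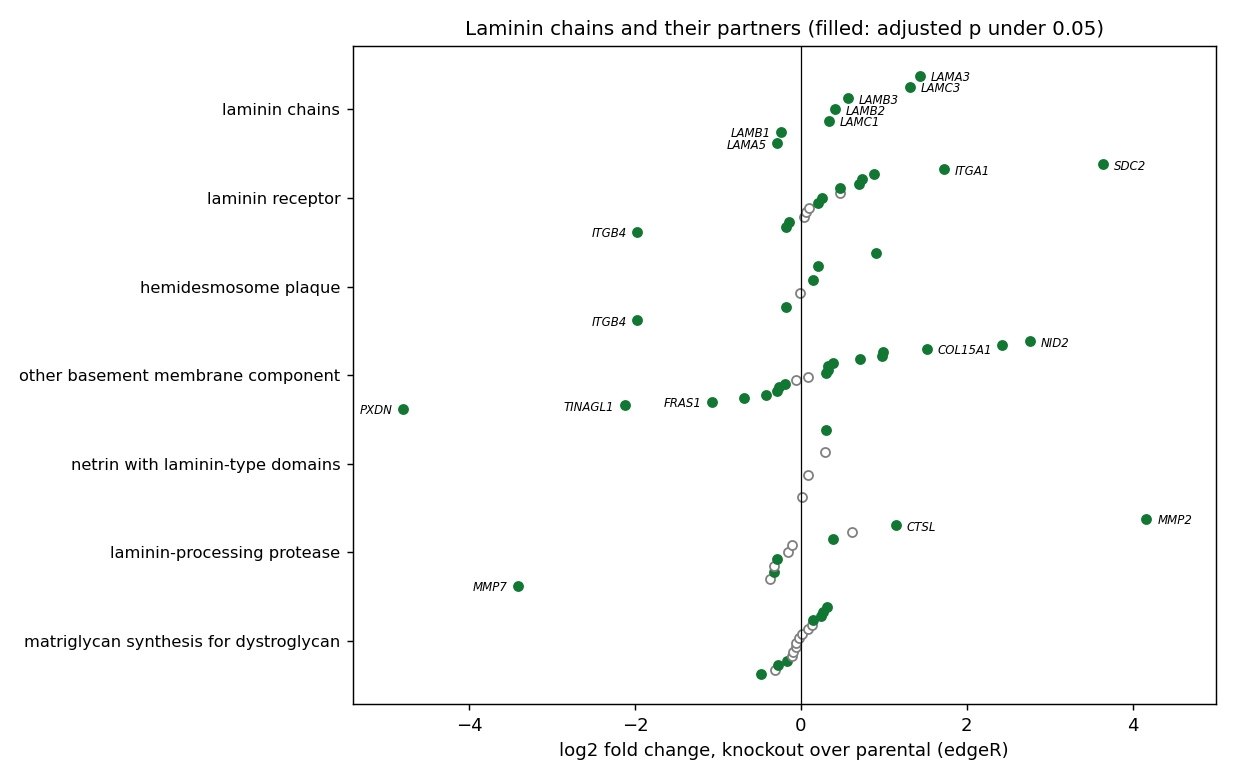
Log2 fold change (knockout over parental, edgeR) of each tested gene, 1 row of points per list, filled where the adjusted p is under 0.05. The 7 laminin chains span -0.28 to 1.44, while other basement membrane components reach from -4.80 (PXDN) to 2.76 (NID2).

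Genes whose log2 CPM followed the chains most closely were ranked by Pearson's r over the 6 libraries, which fall into 2 groups and so give any gene that differs between them a high r. For LAMA3 they were LPCAT2, CCN4 and BVES, each at r of 0.999, among 1582 genes above 0.95. For LAMB3 they were SLC6A12, NFU1 and TUSC3, each at 0.998, among 1352 genes, and for LAMC3 they were GALNT2, TUBB6 and SQSTM1, each at 0.999, among 1417 genes. The nearest 20 tested genes on the chromosome had median log2 changes of 0.082 around LAMA3, 0.034 around LAMC3, -0.081 around LAMB3, -0.12 around LAMA5, -0.090 around LAMB2 and 0.098 around LAMC1. Single neighbours reached larger changes than the chains themselves, with a highest log2 change of 1.68 around LAMA3 and 1.83 around LAMC3. Of the 20 neighbours, 7 were higher and 1 was lower around LAMA3, and 5 were higher and 4 lower around LAMC3. Around LAMA5, 4 were higher and 7 lower, and around LAMB2, 2 were higher and 6 lower. Around LAMB3, 5 were higher and 6 lower, and around LAMC1, 6 were higher and 4 lower. Among all tested genes, 21.3% were higher and 20.1% lower.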

How the data were processed

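PolyA RNA of 3 parental and 3 RAVER1-deleted A549 libraries was extracted with TRIzol and sequenced from stranded Illumina mRNA libraries, per the labels' protocols. Per the submitters' processing notes, reads were trimmed with cutadapt 2.8, aligned to hg38 with HISAT2 2.1.0, handled with SAMtools 1.10 and assigned to genes with featureCounts 2.0.0. The deposited values are raw counts per gene and library. For the annotation release, strand setting and multi-mapped reads, the settings were not given in the sources used here.

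Genes kept by filterByExpr were compared with the quasi-likelihood F-test of edgeR 4.0.16 (R 4.3.3) with TMM factors, all 6 libraries and no covariate, and p-values were Benjamini-Hochberg adjusted over 16652 genes (threshold 0.05). CPM and RPKM used TMM-scaled library sizes, and RPKM used the gene lengths of the deposited table, which lie close to the merged exon lengths of GENCODE 29. Transcript lengths and positions came from GENCODE 29. Replicates of a group were compared in pairs to look for copies of the same library. They differed by more than sampling noise (chi-square per degree of freedom 2.41 to 8.86), so none was taken as a copy and all were kept. Shares were compared by exact permutation over libraries (scipy 1.17.1). The edgeR step was tested on simulated data. It called 39 of 50 genes given a 1.5-fold change and 34 of 50 given the smallest change simulated. Of 16241 unchanged genes, it called 9.

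The members and lists were chosen with earlier results of these data known. In each list, up to 4 genes past the threshold, ranked by adjusted p, were named, and the 3 genes most like the member that changed most in each class. Alternatives were RLE and upper-quartile scaling, other count filters, the replicate number as a block, DESeq2 1.42.0, limma-voom (limma 3.58.1), a test against a 1.5-fold change, each library left out in turn, and other transcript lengths. The short LAMA3 length was added after the data were seen. Some genes of these families, and the results that need them, are not reported here.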

Additional observations from a re-analysis of the deposited data

How the results depend on the processing

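Each of the 7 tested chains kept its direction and its call under 13 alternatives in scaling, filter, replicate block, tool and left-out library, with log2 changes of 1.40 to 1.47 for LAMA3, -0.32 to -0.26 for LAMA5, -0.27 to -0.22 for LAMB1, 0.33 to 0.49 for LAMB2, 0.54 to 0.61 for LAMB3, 0.30 to 0.34 for LAMC1 and 1.26 to 1.41 for LAMC3. The largest adjusted p was 0.00108, for LAMB1. In the edgeR test against a 1.5-fold change, 2 chains were higher (LAMA3 and LAMC3) and 0 were lower, against 5 and 2 in the test against no change. LAMA5 (-0.28), LAMB1 (-0.23), LAMB2 (0.41), LAMB3 (0.57) and LAMC1 (0.34) did not pass it, each with an adjusted p of 1.

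The levels of the trimer ceilings depended on transcript length, but their change from parental to knockout did so only for laminin-321 and laminin-511. The ratio of knockout to parental stayed at 2.71 for laminin-311, 1.33 for laminin-521 and 2.50 for laminin-523. The log2 change for laminin-321 was 1.24 with the short LAMA3 transcript. For laminin-511 it turned from a fall to 0.0031 with the longest transcripts, whichever LAMA3 length was used. Same-numbered libraries had correlated deviations of 0.129, 0.029 and 0.014, so the numbers were not taken to pair samples. With the replicate block the changes were 1.44 for LAMA3, -0.28 for LAMA5, -0.23 for LAMB1, 0.41 for LAMB2, 0.57 for LAMB3, 0.34 for LAMC1 and 1.32 for LAMC3. Of the partner genes described above, the block brought ITGB1 (0.064, adjusted p = 0.0257) and COL4A2 (0.092, adjusted p = 0.00272) past the threshold in edgeR. Depth limits LAMA1 and LAMA4, which had at most 5 counts per library.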
